A study of Mus musculus with 2 samples.

Results

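Collagens are the trimeric matrix proteins of skin, and 40 collagen genes were read on both arrays of a mouse back skin experiment. They were the 80 probes on non-control spots whose gene name in the scanner files had the form of a collagen chain, out of 41165 probes for 27577 gene names. The same name pattern also matched 4 probes of Col4a3bp, which encodes a ceramide transfer protein and is no collagen chain; it was set apart, and its log2 ratio was 0.01. Skin came from male C3H/HeN mice, 61 days old, whose anagen, the growth phase of the hair follicle, had been started by depilation. Mice received 1 µg of FGF18 protein, a secreted fibroblast growth factor, or phosphate-buffered saline (PBS) under the back skin on day 4 of this anagen, and the full thickness of the dorsal skin was sampled after 24 h, that is 5 days from depilation. Both groups were depilated and injected, and no uninjected or undepilated skin was analysed here. The series asked which genes respond to local FGF18 in anagen. The labels name 3 mice without saying whether per group, the extraction protocol has the mice processed separately, the series design has RNA pooled within each group, and the PBS sample is titled as telogen, the resting phase, although its other labels call it anagen.

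With 1 single-colour Agilent array per group there were no replicates, so every value below compares these arrays and carries no test or p-value. Detection was alike: 62.4% (FGF18) and 61.5% (PBS) of 43379 probe spots per array exceeded background clearly. A log2 ratio is that of the processed signal, FGF18 over PBS, after each array's 75th percentile was subtracted, and a gene's ratio is the mean over its probes that were well above background on both arrays. The median over 16610 genes so measured was -0.07, so the ratios below are to be read against that value. A probe that passed on 1 array alone is given an at-least fold, whose direction was fixed by the array on which it passed. The only error that could be measured was between repeated spots of a probe: for a typical repeated probe, the SD of the log2 ratio across spots was 0.026 at bright, 0.041 at middle and 0.11 at dim signals. Markers of skin cells were present: of the lists for fibroblasts, basal keratinocytes and endothelium, 10 of 10, 6 of 6 and 7 of 7 genes were measured. In full-thickness tissue, fewer cells of a type and less RNA per cell cannot be told apart.

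Fibrillar collagens assemble into the banded fibres that carry tension in the dermis and are made mainly by fibroblasts. Basement membrane collagens form sheets under the epidermis, around follicles, vessels, muscle and fat cells, and beaded type VI collagen links the sheets to the dermis. FACIT collagens (fibril-associated, with interrupted triple helices) coat the fibrils, and transmembrane collagens sit in the plasma membrane. Chains of a class are often obligate partners in 1 trimer.

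Fibrillar chains were the lowest class on the FGF18 array relative to all genes, and transmembrane chains the highest. The 11 fibrillar genes had a median log2 ratio of -0.51, against -0.18 for 8 basement membrane genes, -0.27 for 3 beaded genes, -0.14 for 7 FACIT genes, 0.15 for 4 transmembrane genes and -0.13 for 3 genes of other types. Over the 36 collagen genes measured on both arrays the median was -0.22, and 29 of them lay below the median of all genes, where 50% of genes lie by definition. The fibrillar class was lowest by the gene means but not by every reading of the probes: relative to all genes, its median of -0.24 with the brightest or the 3'-most probe of each gene stood above the -0.32 of beaded genes, and with signals over 100 it was -0.30, beside -0.32 for the other types. The fibrillar median lay 0.43 below that of all genes, a distance that scaling by a constant cannot change. The sign of the ratio itself can change: with scaling to spike-in transcripts the median of all genes was 0.74 and the fibrillar median 0.30.

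Fold counts were small. Of the 36 genes, 4 were lower on the FGF18 array by 1.5-fold or more (Col1a1, Col1a2, Col3a1 and Col11a1, all fibrillar), beside 4.82% of all genes, and 1 was at least 1.5-fold higher (Col13a1), beside 3.79% of all genes. At 2-fold, 0 were lower, beside 0.987% of all genes, and Col13a1 alone was higher, beside 1.54%. The counts followed the scaling, for collagen genes as for all genes. With each array's median, 2 of 36 were lower, beside 3.09% of all genes, and 1 was higher, beside 5.42%. Without scaling, 0 were lower and 1 higher, beside 2.38% and 6.67%. With spike-in transcripts, 0 were lower, beside 0.355%, and 18 of 36 were higher, beside 74.2% of all genes. The other 4 collagen genes could not be given a ratio: Col9a1, Col10a1 and Col28a1 were not well above background on either array, and Col19a1 passed on the FGF18 array alone, by 1 of 4 probes, at least 1.18-fold higher.

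**Figure D1:**
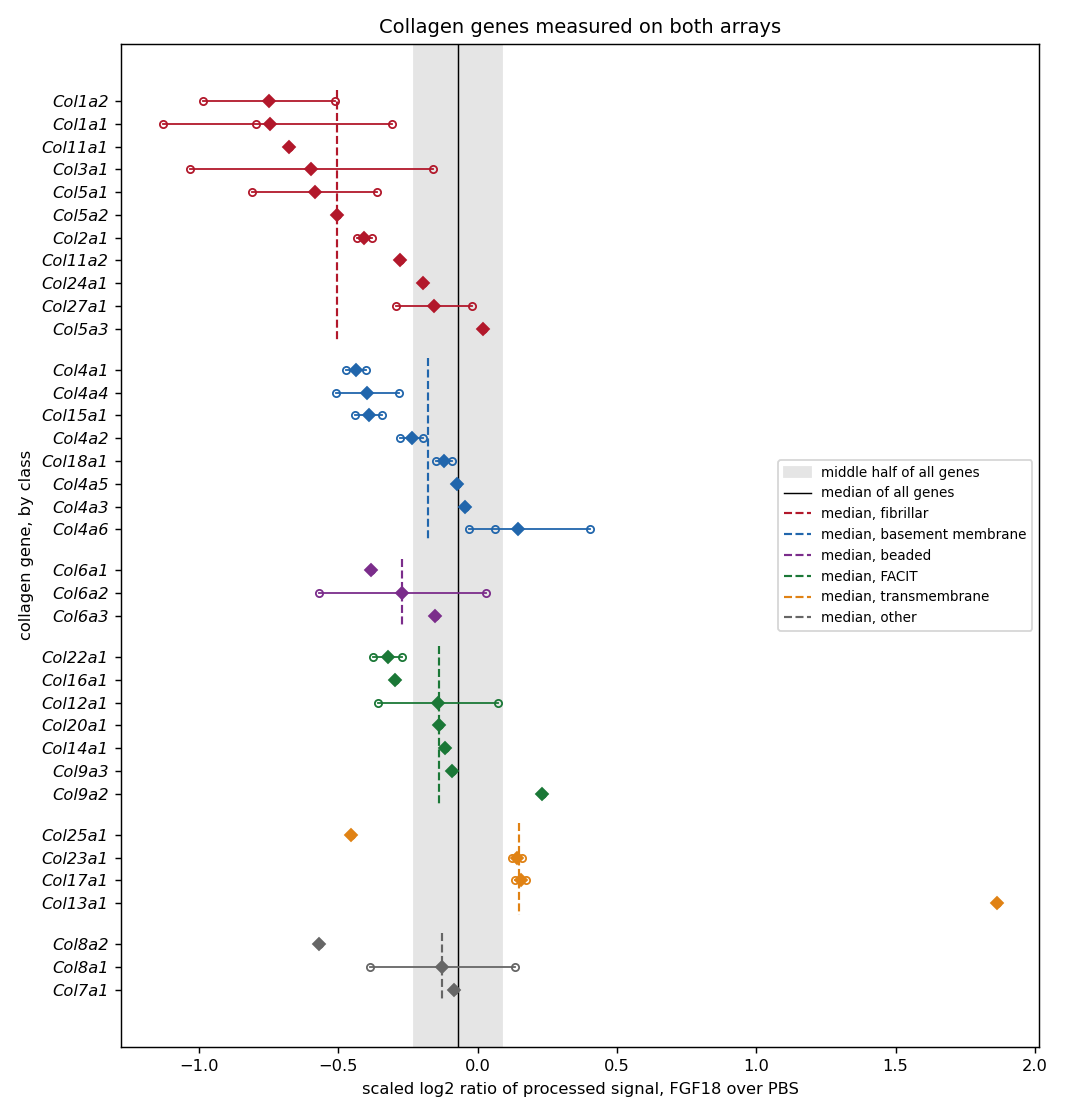
Scaled log2 ratio (FGF18 over PBS) of each collagen gene measured on both arrays, by class; filled diamonds are gene means, open circles single probes, dashed lines class medians, and the grey band spans the quartiles of all genes (-0.23 to 0.09) around their median. The fibrillar genes reach furthest left, with widely separated probes for Col1a1, Col1a2, Col3a1 and Col5a1, and Col13a1 stands alone on the right at 1.87.

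By their gene means, the chains of type I collagen, the main fibre of dermis, were the lowest of the family. With the brightest or the 3'-most probe of each gene, Col11a1 was lowest at -0.67, beside -0.51 for Col1a2 and -0.31 for Col1a1. Col1a2 encodes the minor chain of the type I trimer. Its probe nearest the transcript end had a processed signal of 159000 with FGF18 and 200000 with PBS (log2 ratio -0.51), and a second probe had 41.5 and 72.5 (-0.99), a gene mean of -0.75. Col1a1, the major chain, had 3 probes. The probe printed as 10 spots had mean signals of 132400 and 144800 (log2 ratio -0.31, spot SD 0.055), the next had 11300 and 17300 (-0.80), and the remaining probe 124 and 239 (-1.13), a gene mean of -0.74. Every type I probe was thus lower on the FGF18 array, but by amounts from 1.24-fold to 2.19-fold within Col1a1. Col3a1, the type III chain that shares fibrils with type I and is abundant in young and healing dermis, differed more between probes. Its bright probe had 131000 with FGF18 and 129000 with PBS, which is -0.16 after scaling and close to the median of all genes. A dimmer probe had 89.3 and 161 (-1.03), and another was well above background on the FGF18 array alone (28.4 against 13.7, at least 1.03-fold higher). For Col3a1 the call past 1.5-fold therefore rested on the dim probe.

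Type V and type XI chains nucleate fibrils and set their width. Col5a1 had signals of 8840 and 10000 at one probe (-0.36) and 55.5 and 85.7 at the other (-0.81), a mean of -0.58 that lay just inside the 1.5-fold line. Col5a2, its usual partner, had 3140 and 3930 on its single probe (-0.51). Col5a3, another type V chain, did not share this difference at its bright probe, with 5320 and 4630 (0.02). Its dim probe passed on the PBS array alone (16.3 against 39.7, at least 1.93-fold lower with FGF18), which fixed its direction. Col11a1 had 1670 and 2350 on its measured probe (-0.67, 1.60-fold lower), and it was the only fibrillar gene past 1.5-fold that did not depend on a distant dim probe. Col11a2 had 230 and 246 (-0.28). Col2a1, the fibrillar chain of cartilage, had mean signals of 17150 and 20410 over 10 spots (-0.43, spot SD 0.033). A probe whose site begins 20 bases away was far dimmer, with 122 and 140 (-0.38). Another Col2a1 probe, further upstream, had 6.26 and 6.39 and was not well above background on either array. The measured probes thus had similar ratios but very different brightness. Whether the bright probe read Col2a1 was not tested, so its signal is no measure of how abundant Col2a1 was. Of 5 genes taken as cartilage markers, Sox9, Comp and Acan were measured, at -0.65, -0.46 and -0.40. Matn1 and Hapln1 were not well above background on both arrays. The summed scaled log2 level of the measured markers was 0.84 with FGF18 and 1.36 with PBS. That sum mostly followed Sox9 (1328 and 1708), beside 385 and 448 for Acan and 119 and 144 for Comp. Whether Sox9 marked cartilage in this skin was not tested, nor was the part of these markers in the Col2a1 value. The less common chains Col24a1 (111 and 112, -0.19) and Col27a1 (-0.16 over 2 probes) lay nearer to all genes.

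**Figure D2:**
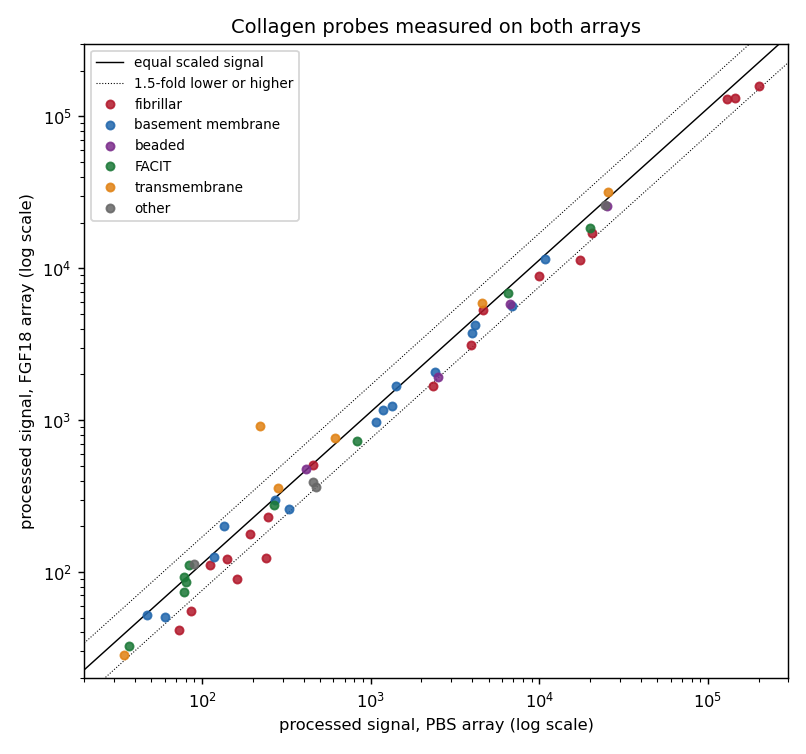
Processed signal of each collagen probe measured on both arrays, PBS on the x axis and FGF18 on the y axis, both log scales, coloured by class; the solid line marks equal scaled signal and dotted lines 1.5-fold either way. Probes of Col1a1, Col1a2, Col3a1, Col5a1 and Col11a1 fall below the lower dotted line, the brightest fibrillar probes and the dim ones of Col2a1, Col11a2, Col24a1 and Col27a1 lie within the dotted lines, and 1 transmembrane probe, of Col13a1, lies far above.

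The widest disagreements between probes measured on both arrays were in Col3a1 and Col1a1, and they went with position along the gene. Among 18 collagen genes with several probes measured on both arrays, Col1a1, Col3a1 and Col6a2 had probes at least 1.5-fold apart, beside 13.9% of all such genes, and 0 had probes at least 2-fold apart, beside 3.1%. Positions are those of the array design, whose genome build the files do not name, so distances between probes of a gene are given without coordinates; they are genomic and include introns. In Col1a1 the ratio went from -0.31 at the probe nearest the 3' end to -0.80 at 1.02 kb and -1.13 at 13.8 kb upstream. In Col1a2 it went from -0.51 to -0.99 over 26.8 kb, in Col3a1 from -0.16 to -1.03 over 27.2 kb and in Col5a1 from -0.36 to -0.81 over 49.5 kb. The FACIT gene Col22a1 showed little change over 70.4 kb, from -0.27 to -0.37. In all 5 collagen genes whose measured probes lay at least 10 kb apart, the upstream probe was lower, with a median difference of -0.47. Among all 1524 genes with probes this far apart, 61.6% had a lower upstream probe, with a median difference of -0.11, and 14.8% were lower by 1.5-fold or more. The upstream probe was also the dimmer in 5 of these 5 collagen genes and in 85.2% of these genes of the whole array. Position and brightness therefore moved together, and their part in the result was not tested. Upstream probes that passed on 1 array alone were outside these pairs. A Col3a1 probe 24.3 kb upstream (28.4 against 13.7) passed on the FGF18 array alone, as did distant probes of Col4a3, Col13a1 and Col23a1. Distant probes of Col5a3 and Col6a3 passed on the PBS array alone. At shorter distances there was no common direction: for probes 1 to 10 kb apart, 3 of 8 collagen genes had the lower ratio upstream, beside 48.3% of all genes, and for probes under 1 kb apart 1 of 5, beside 43.4%. The cRNA was made from poly(A) RNA, and the labelling primer is not described in the labels.

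**Figure D3:**
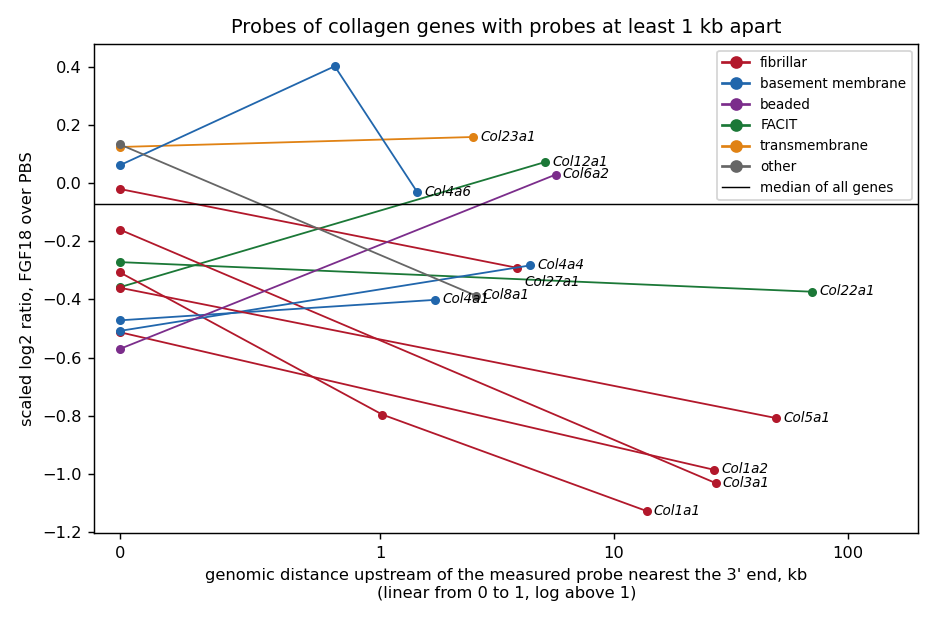
Scaled log2 ratio of each measured probe against its genomic distance upstream of the gene's measured probe nearest the 3' end (linear to 1 kb, log above), for collagen genes with probes at least 1 kb apart, coloured by class. The lines of Col1a1, Col1a2, Col3a1 and Col5a1 descend to between -1.13 and -0.81, Col6a2 and Col12a1 ascend, and the horizontal line is the median of all genes.

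When each gene was read by its measured probe nearest the 3' end, an alternative chosen after seeing the data, the fibrillar median was -0.31 and the basement membrane median -0.19, against -0.07 for all genes. Of the 11 fibrillar genes, 9 were still below the median of all genes by this reading, but 1 of them rather than 4 was at least 1.5-fold lower, namely Col11a1, beside 4.8% of all genes. The distance between the classes shrank from -0.33 to -0.12. The brightest probe of each gene gave the same distance of -0.12, and signals over 100 on both arrays also gave -0.12.

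**Figure D4:**
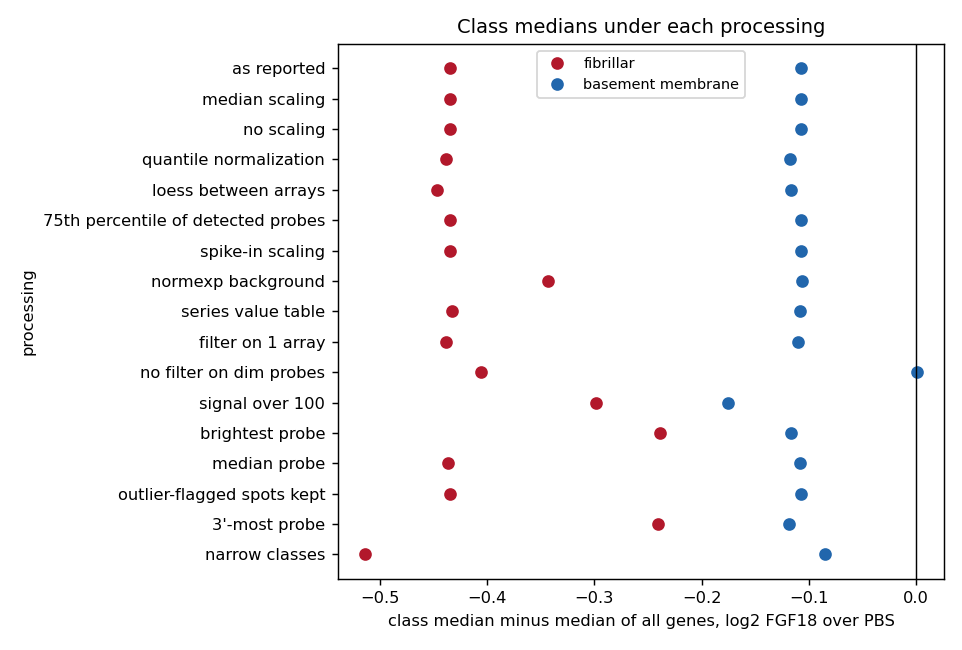
Median log2 ratio of fibrillar and basement membrane collagen genes minus the median of all genes (x axis) under each processing (rows). The fibrillar median stayed between -0.51 and -0.24 and below the basement membrane median in every row shown, and the gap was near 0.12 with the brightest probe, the one nearest the 3' end or signals over 100.

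Start-site sequences are shown for Col1a2 and Col3a1, fibrillar genes among the lowest of the family by gene means, and for Col13a1, the highest. Col11a1, at -0.67 lower than Col3a1, is not shown. Each is the 250 bases before the RefSeq gene start (GRCm38.p6), 5' to 3' on the gene's strand, with matches to CCAAT or TATAAA on either strand in capitals: Col1a2 from chr6:4505368-4505617 (+), Col3a1 from chr1:45311288-45311537 (+) and Col13a1 from chr10:61979109-61979358 (-).
Col1a2: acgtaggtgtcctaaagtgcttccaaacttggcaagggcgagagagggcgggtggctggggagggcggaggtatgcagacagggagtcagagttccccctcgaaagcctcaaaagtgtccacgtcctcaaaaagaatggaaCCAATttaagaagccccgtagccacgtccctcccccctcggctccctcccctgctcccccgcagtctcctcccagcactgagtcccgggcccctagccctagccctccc
Col3a1: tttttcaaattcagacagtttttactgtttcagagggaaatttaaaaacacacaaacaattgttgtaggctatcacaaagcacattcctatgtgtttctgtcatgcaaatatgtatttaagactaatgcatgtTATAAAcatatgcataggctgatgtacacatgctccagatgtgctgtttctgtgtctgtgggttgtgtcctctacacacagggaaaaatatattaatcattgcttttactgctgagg
Col13a1: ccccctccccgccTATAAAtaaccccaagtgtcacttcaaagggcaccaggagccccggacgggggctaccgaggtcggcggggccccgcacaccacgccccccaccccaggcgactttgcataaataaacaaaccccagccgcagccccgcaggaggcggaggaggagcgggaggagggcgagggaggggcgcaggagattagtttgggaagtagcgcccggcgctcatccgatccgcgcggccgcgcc
CCAAT, which began 109 bases before the start of Col1a2, was found in 3 of 8 fibrillar, 4 of 7 basement membrane and 2 of 4 transmembrane windows, beside 34.5% of 27025 windows of the same length. TATAAA began 117 bases before the start of Col3a1 and 237 before that of Col13a1. It was found in 2 of 8 fibrillar, 0 of 7 basement membrane and 2 of 4 transmembrane windows, beside 12.97% of all. Over the 32 collagen windows of all classes, CCAAT was in 11 (34.4%) and TATAAA in 5 (15.6%), near the shares of all windows. No window was available for Col1a1. A match is a run of letters in these windows and no evidence of binding.

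Basement membrane chains lay closer to all genes than fibrillar chains did, and, apart from Col4a3 and Col4a6, their probes stood within 0.23 of each other. Col4a1 and Col4a2 encode the ubiquitous type IV trimer. Col4a1 had signals of 5660 with FGF18 and 6920 with PBS at one probe (-0.47) and 2070 and 2410 at the other (-0.40). Col4a2 had 3720 and 3980 (-0.28) and 1170 and 1180 (-0.19). Both genes were thus lower after scaling at each of their probes, Col4a1 by more, with 1.35-fold and 1.18-fold as gene means. The chains of the other type IV trimers, which serve specialised membranes, were mixed. Col4a4 had 1240 and 1330 (-0.28) and 260 and 326 (-0.51). Col4a5 had 126 and 117 (-0.07), at the median of all genes. Col4a6, its partner in epidermal membrane, was the highest of the class at 0.15, with 1670 and 1410 (0.06), 201 and 134 (0.40) and 300.0 and 270.0 (-0.03) at its probes. Col4a3 was near background: 1 probe had 52.1 and 47.4 (-0.05), and both others passed on the FGF18 array alone, at least 1.47-fold and at least 1.59-fold higher. Their direction was fixed by that array, so they cannot be set against the probe measured on both. Col15a1 and Col18a1 encode the proteoglycan collagens that anchor membranes to the stroma. Col15a1 was at -0.39, with 966 and 1080 (-0.34) and 50.6 and 60.5 (-0.44). Col18a1, the source of endostatin, was at -0.12, with 11500 and 10800 (-0.09) and 4230 and 4130 (-0.15). Without Col15a1 and Col18a1, and with types XXIV and XXVII left out of the fibrillar class, the distance between the class medians was -0.43 rather than -0.33.

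The beaded chains were all below the median of all genes, at their gene means. Col6a1 had 5800 and 6670 on its single probe (-0.38). Col6a3, the long chain that joins the other chains of the trimer, had 25800 and 25300 at its bright probe (-0.15). Another of its probes, 35.5 kb upstream, passed on the PBS array alone (22.1 against 67.8, at least 3.30-fold lower with FGF18), which fixed its direction. Col6a2 had probes on opposite sides of 0, with 1910 and 2500 (-0.57) at one and 476 and 411 (0.03) at the other, which was designed to a cDNA clone and lies 5.64 kb upstream. The order of these 3 genes therefore cannot be read from their means. Probes whose accession now names Col6a4, Col6a6 and Col26a1 carry older names in the files and fall outside the name pattern; of these Col26a1 alone was measured on both arrays, with 106 and 65.9 (0.50).

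FACIT chains ranged from -0.32 to 0.23, and 6 of 7 lay below the median of all genes. Of these, Col22a1 (-0.32) and Col16a1 (-0.29) also lay below the lower quartile of all genes, -0.23. Col14a1, which binds dermal fibrils, had 6870 and 6560 (-0.12). Col12a1, its relative in dense connective tissue, had probes that differed in sign, 733 and 828 (-0.36) and 92.7 and 77.7 (0.07). Col16a1, found near the dermal-epidermal junction, had 18400 and 19900 (-0.29). Col22a1, of muscle-tendon junctions, had 73.4 and 78.1 (-0.27) and 32.4 and 37.0 (-0.37). Col20a1 had 275 and 267 (-0.14). The cartilage chains Col9a2 (111 and 83.4, 0.23) and Col9a3 (85.4 and 80.3, -0.09) were dim, at signals where the spot SD was 0.11.

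The transmembrane class held the one collagen gene past 2-fold. Col13a1 encodes a collagen of cell adhesion sites and of the neuromuscular junction. Its probe nearest the 3' end had a signal of 909 with FGF18 and 220 with PBS, a log2 ratio of 1.87 or 3.64-fold higher. Its other probe, 29.1 kb upstream, had 75.2 and 17.8 and passed on the FGF18 array alone, at least 2.74-fold higher; its direction was fixed by the array on which it passed. Only 0.506% of measured genes had a ratio as high as the gene's 1.87. Over the alternatives tried, the ratio of Col13a1 lay between 1.57 and 2.67. Skeletal muscle markers, which the tissue contains, had a median of 0.20 over 6 of 6 genes, with summed scaled log2 levels of 8.72 with FGF18 and 8.58 with PBS; their part in the Col13a1 value was not tested. Col17a1, the hemidesmosome collagen of basal keratinocytes, had 32000 and 25700 (0.13) and 5880 and 4590 (0.18), close agreement between probes, while the basal keratinocyte markers had a median of -0.09. Col23a1 had 762 and 616 (0.13) and 356 and 281 (0.16). Col25a1, a collagen of neurons, had 28.3 and 34.2 (-0.45) at signals near background.

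Of the remaining types, Col7a1 forms the anchoring fibrils that hold the epidermis to the dermis, and it had 26200 and 24500 (-0.08), at the median of all genes. The network chains Col8a1 and Col8a2, of vessel walls and specialised membranes, were at -0.13 and -0.57 by gene means. The probes of Col8a1 differed in sign, and its brighter probe was lower, as was Col8a2. Col8a2 had 360.0 and 471 (-0.57). Col8a1 had 394 and 454 (-0.39) at one probe and 112 and 90.0 (0.13) at another 2.56 kb nearer the 3' end.

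Genes that modify, cut and cross-link collagen were nearer to all genes than the fibrillar chains were (median -0.51 by gene means, -0.31 by 3'-most probes). Of 32 such genes 29 were measured, with a median of -0.15; 1 was at least 1.5-fold lower (Pcolce2, an enhancer of procollagen cleavage, -0.66) and 0 higher, beside 4.82% and 3.79% of all genes. P4hb, a subunit of prolyl 4-hydroxylase, was the highest of the brighter members at 0.19. Proteins bound to fibrils lay lower, at a median of -0.30 over 15 of 15 genes, with 14 below the median of all genes; Aspn (asporin, a small leucine-rich proteoglycan) was lowest at -0.68 and Tnxb (tenascin X) highest at 0.24. Partners of collagen in basement membranes had a median of -0.08 over 15 of 18 genes and 0 past 1.5-fold in either direction, from Nid2 (nidogen 2) at -0.37 to Pxdn (peroxidasin, which cross-links type IV collagen) at 0.27. Collagen receptors had a median of -0.07 over 14 of 16 genes, from Antxr1 at -0.36 to Itgb1 at 0.18 among the brighter ones. Lair1, an inhibitory collagen receptor of leukocytes, was 3.22-fold higher, with its probes at 1.36 and 2.01. Genes of collagen breakdown had a median of -0.09 over 13 of 16 genes; Mmp2, a gelatinase, was at -0.45, Timp1, an inhibitor of metalloproteases, was 3.07-fold higher, and the collagenase Mmp13 was 2.30-fold higher at dim signals of 82.5 and 31.6.

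Markers of the cells that make these chains were set beside the classes. Fibroblast markers had a median of -0.15 over 10 genes, with 8 below the median of all genes; their summed scaled log2 level was 6.37 with FGF18 and 6.51 with PBS. Clec3b was lowest, by 2.15-fold, followed by Twist2 at -0.58 and Mfap5 at -0.36, and Fbln1 was highest at -0.04. The fibroblast receptors Pdgfra and Pdgfrb were at -0.19 and -0.05. Endothelial markers had a median of 0.10 (summed level 2.64 and 2.45) and adipocyte markers 0.20 (6.86 and 6.72). Macrophage markers had a median of -0.31 (3.35 and 3.55) over genes that differed in sign, from Mrc1 at -0.70 to Cd68 at 0.31. Schwann cell markers had a median of -0.08 (1.46 and 1.61) and dermal papilla markers -0.15 over 5 of 6 genes (2.33 and 2.41). Basal keratinocyte markers had a summed level of 8.76 and 8.84. The part of these lists in the collagen values was not tested.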

How the data were processed

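Gene expression of mouse back skin was read on 1 single-colour Agilent array per group (design 014868). Per the file headers, the scans were processed by Agilent Feature Extraction 9.5.3.1, and the deposited intensity values are a background-subtracted, detrended processed signal, the spot mean and the local background. In the series matrix the authors' values are a ratio, each processed signal over its array's median (83.8 for FGF18, 80.0 for PBS). The deposited files also give flags and spot types in other columns, and 0 sample columns were unmapped. No genome build is named.

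Each array's 75th percentile (1020 and 899) was subtracted from log2 signals. Spots that were controls or flagged as outliers were dropped and repeated spots averaged; a probe was taken as measured when a share of 0.5 or more of its spots passed the flag for well above background. For a probe measured on 1 array, the dim side was set at the higher of its own signal and the array's lowest signal well above background (23.3 and 24.2), giving "at least" a fold. Members keep the files' names; other genes were renamed through a RefSeq table of GRCm38.p6. Genes beside the members were named where highest or lowest among the brighter members of a list, or past 2-fold. The marker lists of cell types did not keep to this rule throughout. The members, classes and lists were chosen with earlier results of these data known. The script was tested on simulated data. Alternatives were other scalings, filters, background correction (limma 3.58.1), probe rules, thresholds and class limits. Precision is limited by the number of arrays.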

Additional observations from a re-analysis of the deposited data

How the results depend on the processing

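No paired analysis was possible because each group has 1 array. Class medians are given here minus the median of all genes, so scaling by a constant cannot move them, and they are called moved when they shift by more than the spot SD of 0.041; counts are called moved when they change by more than 1.5 times. The fibrillar median, -0.43, was -0.34 with normexp, -0.30 with signals over 100, -0.24 with the brightest or 3'-most probe and -0.51 with narrow classes. The fibrillar minus basement membrane distance, -0.33, was -0.24, -0.12, -0.12, -0.12 and -0.43 in the same order, and -0.41 without a filter on dim probes. Without that filter the other medians were 0.00057 (basement membrane), 0.039 (FACIT), 0.35 (transmembrane), 0.052 (other types) and -0.0064 (all chains). Before the subtraction, the basement membrane, FACIT and other-type medians were -0.18, -0.14 and -0.13, the same as with the filter. The median of all genes itself went from -0.07 to -0.18. Without the filter 7 of 40 genes were lower and 3 higher, beside 8.0% and 5.84% of all genes. Probes were apart in 11 of 29, beside 28.5%. With signals over 100, the medians were -0.18 (basement membrane), -0.16 (FACIT), -0.32 (other types) and -0.21 (all chains), with 2 of 31 lower, beside 3.14% of all genes. With the brightest probe they were -0.32 (beaded), -0.32 (other types) and -0.21 (all chains), with 1 of 36 lower, beside 4.82%; with the 3'-most probe the beaded median was -0.32, with 1 lower, beside 4.8%. Accepting probes above background on 1 array gave -0.32 for beaded genes, 5 of 37 lower and 3 higher, beside 6.88% and 6.02% of all genes, and 6 of 22 with probes apart, beside 18.8%. Under that rule Col3a1 was at -0.11 and no longer past 1.5-fold, Col5a3 was at -0.72, Col6a3 at -0.98 and Col4a3 at 1.00, so the lower genes were no longer all fibrillar. These values took in probes whose direction was fixed by the array on which they passed. The count lower was 2 with median scaling, quantile normalization and normexp, beside 3.09%, 3.87% and 2.48% of all genes, and 0 with no scaling, with spike-in transcripts and at 2-fold, beside 2.38%, 0.355% and 0.987%. It was 3 with loess or the 75th percentile of detected probes, beside 3.56% and 4.43% of all genes. With outlier spots kept it was 5, beside 4.92%. The count with probes apart was 5 of 18 with quantile normalization, beside 13.5% of all genes, 2 with normexp and with signals over 100, beside 6.73% and 7.67%, and 0 at 2-fold, beside 3.1%. Scaling to spike-in transcripts added 0.81 to every ratio and put all 36 measured chains above 0, where 30 had been below it; these included Col11a1 (0.13), Col1a1 (0.062), Col1a2 (0.056) and Col3a1 (0.21), and the count higher was 18 of 36, beside 74.2% of all genes. Whether equal spike-in went with equal RNA is not known from the sources used here. Dim signals near the array floor limit what the upstream probes can show. The causes of these changes were not tested.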
